A study of Mus musculus with 8 samples.

Results

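The genes described here encode the adaptor proteins that link integrins to actin at focal adhesions and the contractile actin cytoskeleton that pulls on them. They were chosen by name, as a list of 46 gene symbols, with earlier results of these data known, so the list was not tested as a set. All 46 matched an Ensembl gene among the 47729 gene IDs of the neural stem cell (NSC) table and the 40562 of the astrocyte table. The mice were C57BL/6 and either WT or S89G-DMP1, a knock-in in which serine 89 of dentin matrix protein 1, the site that carries its glycosaminoglycan chain, is replaced by glycine. The change was made by homologous recombination in embryonic stem cells, so it is not limited to a cell type. RNA was sequenced as 3 WT and 3 S89G-DMP1 libraries from neurosphere cultures of NSCs from the sub-ventricular zone. For cultures of cortical astrocytes grown in medium with serum there was 1 WT and 1 S89G-DMP1 library. All of the mice are labelled as 10 weeks old, whereas the methods give 3 months for the mice behind the astrocyte cultures. Whether the triplicate NSC libraries came from separate mice or cultures, and how many mice went into each culture, is not given in the sources used here, so p-values measure only the spread between these libraries.

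At a focal adhesion, the heads of talin and kindlin bind the tails of integrins, and talin under tension recruits vinculin, which binds actin. The kinases FAK and SRC and the scaffolds paxillin and p130Cas turn adhesion into signalling, while the complex of ILK, PINCH and parvin, the actin crosslinkers and the tensins hold the adhesion to actin filaments. Myosin II, driven through RhoA and its kinases ROCK1 and ROCK2, contracts these filaments. Adherent cells grown on a hard surface build large adhesions and stress fibres, and smooth muscle cells, pericytes and fibroblasts express a contractile set of actin, transgelin, calponin and tropomyosin. Neural stem cells in floating spheres attach mainly to each other and to matrix they secrete themselves.

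Between 2354615 and 2588130 reads were counted on genes in each NSC library, 14008670 in the WT astrocyte library and 13016924 in the S89G-DMP1 astrocyte library. Levels are given as CPM, which are counts brought to one common library total with TMM factors, and levels of different genes are compared only as CPM per kb of annotated exon. Dmp1 itself had 18, 21 and 16 counts in the WT and 6, 3 and 5 counts in the S89G-DMP1 NSC libraries, and 2 and 119 counts in the WT and S89G-DMP1 astrocyte libraries, which does not show which codon a library carries. The NSC libraries showed the neural progenitor genes Sox2 (747 to 890 counts) and Nes (4572 to 5460 counts). Most markers of the labelled cell type were scarce in the WT astrocyte library. There the astrocyte genes Aqp4, Slc1a3, Mlc1 and Gfap had 8, 8, 2 and 90 counts, against 4051, 3877, 2399 and 901 in the S89G-DMP1 library. Gja1 was not scarce (1165 counts in WT and 1913 in S89G-DMP1), and S100b was higher in WT (64 and 30). The collagen genes Col1a1 (27329 and 22501 counts) and Col3a1 (14756 and 2845 counts) were abundant in both libraries. Xist had 12172 counts in the WT and 74 in the S89G-DMP1 astrocyte library, and the Y-linked Ddx3y 0 and 1277, so sex and genotype cannot be told apart there. In the NSCs both genotypes showed both Xist and Ddx3y, neither of which was called different.

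In NSCs 11 members fell in S89G-DMP1 and 0 rose. They were the tensins Tns1 and Tns3, the cytolinker Plec, the signalling genes Src, Pxn and Bcar1, the talin gene Tln1, the LIM protein gene Zyx, the non-muscle myosin gene Myh9, the caveolar coat gene Cavin1 and the talin-binding Kank2. The decreases ranged from 0.20 on the log2 scale for Myh9 to 1.11 for Kank2, whose S89G-DMP1 level was 46.5% of WT. The test was the quasi-likelihood test of edgeR, fitted over 11194 genes, and a gene was called at a Benjamini-Hochberg adjusted p under 0.05. Of the 46 members 36 had enough counts to be tested, and of these 11 were called lower and 25 were not called. Among all tested genes 8.76% were called lower and 7.08% higher. The median log2 fold change was -0.09 over the tested members and 0.00 over all tested genes. Of the tested members 24 had a negative and 12 a positive log2 fold change. In 14 members every S89G-DMP1 library lay below every WT library, and in 0 did every S89G-DMP1 library lie above, whereas among all tested genes this was so for 16.0% and 14.8%. DESeq2 called 10 of the 11 genes, all but Bcar1 (adjusted p = 0.074), and called 0 members higher. On the deposited TPM values limma called 2 of the 11, Tns3 and Cavin1, and called 38 genes higher and 107 lower over all genes with a pseudocount of 1. The log2 fold changes of the 11 were negative there too, with Src the closest to 0 (-0.09). At an unadjusted p under 0.05 edgeR had 2 members higher, Rock1 and Rock2.

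**Figure D1:**
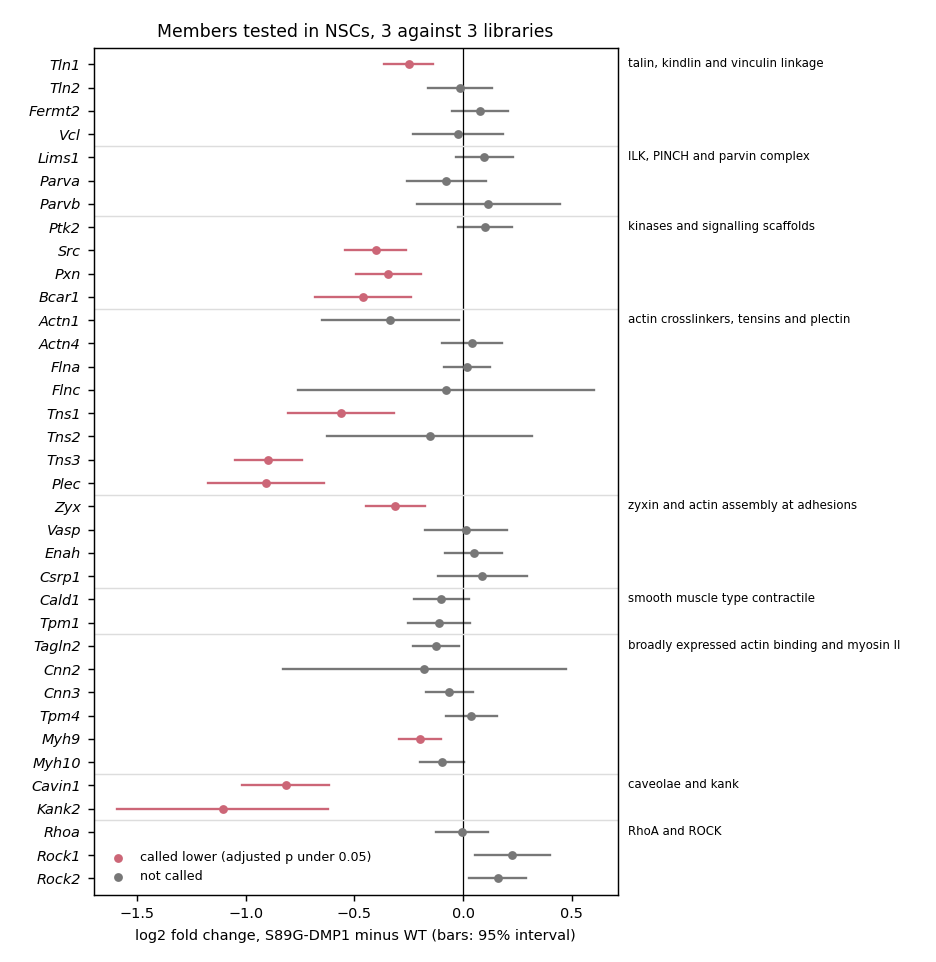
The log2 fold change of S89G-DMP1 minus WT is plotted with its 95% interval for the 36 members tested in NSCs, 3 libraries against 3, grouped by role. The 11 called genes are coloured and all lie left of 0, from -0.20 for Myh9 to -1.11 for Kank2, and the farthest uncalled gene to the right is Rock1 at 0.23.

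The tensins join integrin tails to actin at the long, matrix-bound adhesions that form after the first contacts. Tns3 (ENSMUSG00000020422, GRCm38 chr11:8431652-8664535, minus strand) was counted at 145, 152 and 158 CPM in the WT libraries and at 81.7, 85.6 and 77.8 CPM in the S89G-DMP1 libraries. The lowest WT library was thus well above the highest S89G-DMP1 library, and no other member had as small an adjusted p. Its log2 fold change was -0.90 (SE 0.08, adjusted p = 1.7e-14). Tns1 (chr1:73910231-74124449, minus strand) stood at 44.7, 47.0 and 49.1 CPM in WT and at 32.0, 35.5 and 28.1 in S89G-DMP1. Its groups did not overlap either, and the log2 fold change was -0.56 (SE 0.12, adjusted p = 5.9e-04). Tns2, the remaining tensin, was less abundant, with 10.2 ± 1.58 CPM in WT and 9.16 ± 0.829 in S89G-DMP1 (SD, n = 3), and its groups overlapped. Its 95% interval, from -0.62 to 0.32, includes the change of Tns1.

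Plectin ties intermediate filaments to actin and to adhesions. Plec (chr15:76170974-76232574, minus strand) had 41.3, 52.4 and 54.3 CPM in WT and 30.7, 27.8 and 20.9 in S89G-DMP1. All 3 S89G-DMP1 libraries were lower than all 3 WT libraries, although the libraries of each genotype spread more than those of Tns3. Its log2 fold change was -0.91 (SE 0.14, adjusted p = 4.3e-07) and lay between -1.03 and -0.76 in the 6 fits that each lacked 1 library. The actin crosslinkers of the same group were not called. Flna, the more abundant of the 2 member filamins, had 472 ± 21.7 CPM in WT and 478 ± 19.6 in S89G-DMP1 (SD, n = 3), with a 95% interval of the log2 fold change from -0.09 to 0.12. Actn4 had an interval from -0.10 to 0.18. Actn1 had 23.6 to 26.0 CPM in WT and 16.8 to 21.1 in S89G-DMP1. These groups did not overlap, but the gene did not pass the test (log2 fold change -0.33, adjusted p = 0.16).

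Among the kinases and scaffolds 3 of the 4 members fell. SRC and FAK phosphorylate each other and the scaffolds paxillin and p130Cas (the product of Bcar1), which recruit further adaptors. Src (chr2:157418444-157471862, plus strand) was at 159.7, 177 and 176 CPM in WT and at 123, 137 and 129 in S89G-DMP1, a log2 fold change of -0.40 (SE 0.07, adjusted p = 1.7e-05). Pxn (chr5:115506676-115555987, plus strand) was at 138, 145 and 161 CPM in WT and at 107, 129 and 114 in S89G-DMP1, with a log2 fold change of -0.34 (SE 0.08, adjusted p = 6.7e-04). Bcar1 (chr8:111710474-111743809, minus strand) was at 51.8, 56.7 and 61.1 CPM in WT and at 41.7, 38.9 and 42.5 in S89G-DMP1, with a log2 fold change of -0.46 (SE 0.11, adjusted p = 0.0018). None of the 3 had overlapping groups. Ptk2, which encodes FAK, was at 195 to 216 CPM in WT and 213 to 229 in S89G-DMP1, and its interval, from -0.03 to 0.23, does not include the change of any of the 3.

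The integrin-binding and vinculin linkage changed in 1 of its 4 members. Tln1 (chr4:43531519-43562691, minus strand), the talin found in most cells, had 336, 353 and 329 CPM in WT and 295, 286 and 275 in S89G-DMP1. The groups did not overlap, and the S89G-DMP1 level was 84.1% of WT (log2 fold change -0.25, SE 0.06, adjusted p = 0.0010). Tln2 (0.93), Fermt2, the kindlin of non-blood cells (0.48), and Vcl, which encodes vinculin (0.92), had the adjusted p given in brackets. Their log2 fold changes were -0.01, 0.08 and -0.02, with 95% intervals that reached at most 0.23 below and 0.21 above 0. Of the annotated exon length of Vcl 25.5% overlaps Ap3m1, so its count is uncertain where the counting did not use strand.

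In the complex of ILK, PINCH and parvin none of the 3 tested members was called. Lims1, the PINCH gene that dominated here, had 227, 203 and 200.5 CPM in WT and 239.7, 200.3 and 233 in S89G-DMP1. Parva and Parvb had log2 fold changes of -0.08 (SE 0.09) and 0.12 (SE 0.17). Lims2 had at most 1.55 CPM in any NSC library and was not tested. Ilk was not tested either, with 0.799 to 3.21 CPM, and 89.7% of its exon length overlaps Taf10, so that reads of Ilk may not have been counted for it.

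Zyxin gathers at adhesions and stress fibres under tension and brings in VASP and Mena, which extend actin. Zyx (chr6:42349630-42360213, plus strand) had 176, 191 and 200.1 CPM in WT and 161, 148 and 148 in S89G-DMP1. The groups did not overlap, and the log2 fold change was -0.31 (SE 0.07, adjusted p = 5.6e-04). Its partners Vasp (0.02, interval -0.17 to 0.20) and Enah, which encodes Mena (0.05, interval -0.08 to 0.18), were not called, nor was the LIM protein gene Csrp1 (0.09, interval -0.12 to 0.29). Tes had 0.401 to 2.72 CPM and was not tested.

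Caveolae are small pits of the cell membrane that flatten under stretch, and cavin-1 is the coat protein they need. Cavin1 (chr11:100956733-100970887, minus strand) was counted at 81.8, 75.8 and 79.5 CPM in WT and at 43.4, 47.5 and 43.7 in S89G-DMP1. Its 2 groups were tight and far apart, with a log2 fold change of -0.82 (SE 0.10, adjusted p = 3.7e-09). Kank2 (chr9:21766784-21798744, minus strand), whose product binds talin at the rim of adhesions, had 16.9, 10.1 and 15.6 CPM in WT and 6.74, 5.99 and 6.82 in S89G-DMP1. The log2 fold change was -1.11 (SE 0.25, adjusted p = 6.5e-04), the largest decrease of a tested member, at the lowest CPM of the 11. Cav1, the membrane protein of the caveolar coat, had 0.428 to 3.11 CPM and was not tested.

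**Figure D2:**
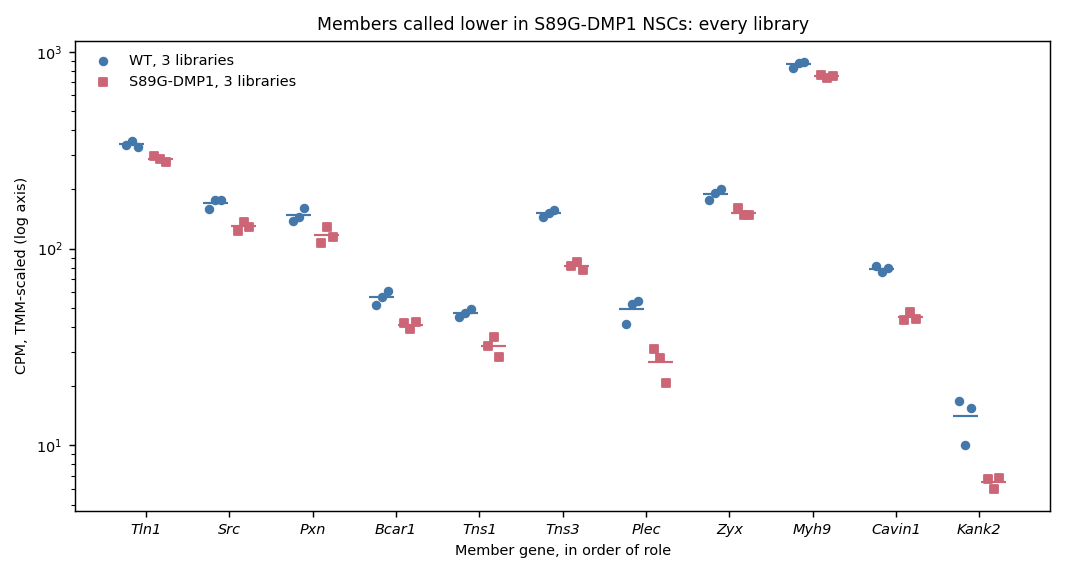
CPM on a log axis is plotted for each of the 3 WT (circles) and 3 S89G-DMP1 (squares) NSC libraries of the 11 members called lower, with horizontal lines at the means. For each gene the S89G-DMP1 libraries lie below the WT libraries, from Myh9 at 740.0 to 887 CPM down to Kank2 at 5.99 to 16.9 CPM.

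The 6 broadly expressed actin-binding and myosin genes held the largest sum of the 9 role groups in NSCs, 2507 to 2600.1 CPM over the WT and 2363 to 2379 over the S89G-DMP1 libraries. Myh9 (chr15:77760587-77842175, minus strand), the heavy chain of non-muscle myosin IIA, had 826, 877 and 887 CPM in WT and 766, 740.0 and 754 in S89G-DMP1. The groups were apart, by a small decrease of 0.20 on the log2 scale (SE 0.05, adjusted p = 0.0024). Myh10, the heavy chain of myosin IIB, had 520.0 to 540.3 CPM in WT and 496 to 501 in S89G-DMP1, without overlap, but was not called (log2 fold change -0.10, adjusted p = 0.22). Tagln2 was at 477, 502 and 519 CPM in WT and at 438, 478 and 458 in S89G-DMP1, groups that overlapped (log2 fold change -0.12, adjusted p = 0.11). Cnn2, Cnn3 and Tpm4 had log2 fold changes of -0.18, -0.06 and 0.04 and were not called.

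Most of the smooth muscle type genes were near 0 in the NSCs. Of these 8 members 6 were not tested, and Acta2, Cnn1, Myh11 and Tpm2 had at most 3 counts in every NSC library. Cald1 and Tpm1, which are also expressed outside muscle, were at 213 ± 6.44 and 143 ± 6.29 CPM in WT and at 199 ± 11.5 and 133 ± 4.61 in S89G-DMP1 (SD, n = 3). Neither was called (adjusted p = 0.33 for each).

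RhoA and its kinases, which switch on myosin II, were not called. Rhoa was at 286 ± 19.0 CPM in WT and 284 ± 14.3 in S89G-DMP1 (SD, n = 3). Rock1 was at 95.7, 89.7 and 75.5 CPM in WT and at 107, 104 and 94.3 in S89G-DMP1, with a log2 fold change of 0.23 (SE 0.09, adjusted p = 0.068). Rock2 was at 219.6, 183 and 182 CPM in WT and at 216, 211 and 223 in S89G-DMP1, with a log2 fold change of 0.16 (SE 0.07, adjusted p = 0.10). Both overlapped between genotypes. Rock1 was called higher without WT replicate 1 and without S89G-DMP1 replicate 3, and Rock2 without WT replicate 1, whereas the 11 lower genes were called in all 6 fits that each left out 1 library.

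Markers of other cells were counted in the same libraries. Of 14 fibroblast and meningeal markers 9 had at most 3 counts in every NSC library, with Col1a2, Dcn and Lum at 0 in all 6, and the summed level of the list ranged over 101 to 119 CPM in WT and 57.4 to 78.8 CPM in the S89G-DMP1 libraries. Of the 4 genes of that list tested, Col5a1 (log2 fold change -1.27) and Pdgfra (-0.84) were called lower, against 8.76% of all tested genes. Fbln1 (-0.36) and Foxc1 (0.57) were not called, and DESeq2 did not call Pdgfra (adjusted p = 0.12). The mural list, with 9 of 10 markers at most at 3 counts, summed to 37.5 to 55.9 CPM in WT and 35.7 to 51.8 in S89G-DMP1. Astrocyte markers moved the other way, with 5 of 8 tested called higher, among them Aldh1l1 (1.03), against 7.08% of all tested genes. Their summed level was 1745 to 1798 CPM in the WT and 2407 to 2463 CPM in the S89G-DMP1 libraries. A lower level in a bulk library can come from fewer cells of a type or from less RNA per cell, which cannot be told apart, and the part of these shifts in the decreases of the 11 members was not tested.

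A wider list of 80 genes of the same pathways, which holds none of the 46, was set beside them. Of the 62 tested in NSCs 14 were called lower and 2 higher, against 8.76% and 7.08% of all tested genes, and DESeq2 called 5 lower and 0 higher. The median log2 fold change of the 62 was -0.03. By family, 4 of 23 other focal adhesion genes, 4 of 25 other genes of actomyosin and its regulators, 4 of 10 genes of SRF and YAP and their targets, and 2 of 4 other caveolar genes were lower. SRF and YAP are regulators of transcription that respond to actin assembly and to tension at adhesions. Srf and Yap1 themselves were not called (-0.01 and -0.08). The largest decreases were those of the matrix protein gene Ccn1, a YAP target (-0.90, adjusted p = 0.027), the myosin IIC gene Myh14 (-0.79, adjusted p = 4.4e-08), the LIM protein gene Fhl1 (-0.68, adjusted p = 1.1e-11), the YAP target Amotl2 (-0.47, adjusted p = 0.036) and the caveolin gene Cav2 (-0.40, adjusted p = 0.040). Fhl1 had 173, 189 and 187 CPM in WT and 114, 111 and 117 in S89G-DMP1, and both Fhl1 and Myh14 were called by DESeq2 and in all 6 fits that left out 1 library. Ccn1, Amotl2 and Cav2 kept their call in 2, 3 and 2 of those fits and were not called by DESeq2. The 2 higher genes, the formin gene Diaph3 (0.42, adjusted p = 0.0061) and the myosin light chain kinase gene Mylk (0.41, adjusted p = 0.0030), were not called by DESeq2 either.

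The astrocyte libraries were compared to see which members differed there. There is 1 library per genotype, so no test was possible, and the intervals given are 95% exact binomial intervals that cover counting error only. The tensin Tns1, the smooth muscle myosin Myh11, the parvin Parvb and the PINCH gene Lims2 were the members lowest in the S89G-DMP1 library relative to WT, and the transgelin Tagln2 and smooth muscle actin Acta2 the highest. Of the 46 members 45 reached 10 counts in either library, all but Ilk with 3 and 6 counts. By TMM scaling 13 members were lower by 2-fold or more, against 12.8% of all 15680 counted genes. Another 4 were higher by 2-fold or more, against 17.3% of all counted genes. The median log2 ratio was -0.20 over the members and 0.01 over all counted genes. By library size alone the median of all genes was 0.30 and that of the members 0.09, with 10 members at least 2-fold lower and 4 higher, against 9.66% and 22.2% of all counted genes. On that scale 21 members were lower and 24 higher, against 32 lower and 13 higher by TMM, so the sign of a small ratio depends on the scale.

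**Figure D3:**
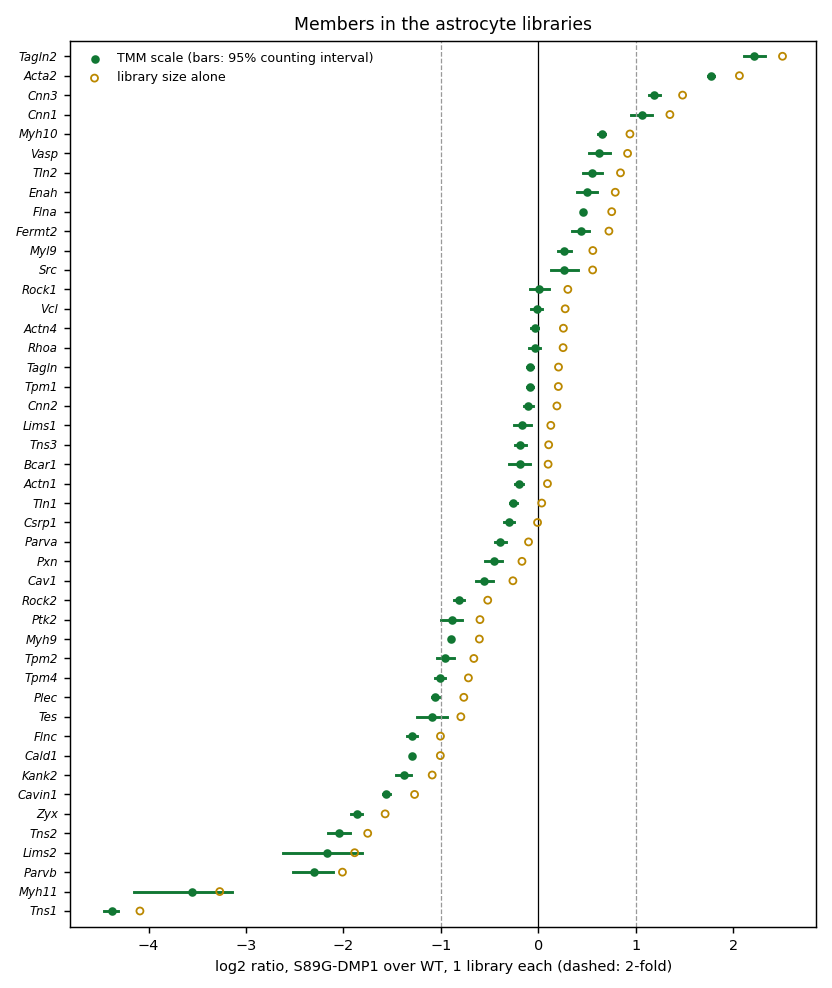
The log2 ratio of the S89G-DMP1 over the WT astrocyte library is plotted for the 45 counted members on the TMM scale (filled, with counting intervals) and by library size alone (open), with dashed lines at 2-fold. Tns1 (-4.38) and Myh11 (-3.55) lie at the bottom and Tagln2 (2.21) at the top on the TMM scale, and the open points lie to the right of the filled ones for all members.

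Tns1 went from 31108 counts in the WT to 1697 counts in the S89G-DMP1 astrocyte library, a log2 ratio of -4.38 (interval -4.45 to -4.31), or 20.8-fold. By library size alone the ratio was -4.09. Tns2 had 2882 and 794 counts (-2.04, interval -2.16 to -1.93), and Tns3, the tensin that fell most in NSCs, 4841 and 4840 counts (-0.19, or 0.11 by library size alone). The shares of the tensins therefore set the WT astrocyte library apart from the other groups. Tns1 held 66.9% of the tensin CPM per kb in the WT astrocyte library and 15.5% in the S89G-DMP1 library. Tns3 held 14.9% in the WT and 63.2% in the S89G-DMP1 astrocyte library. In NSCs Tns3 held 73.9% ± 1.3 in WT and 66.6% ± 1.0 in S89G-DMP1 (SD, n = 3).

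Most of the smooth muscle type genes, but not Myh11, were abundant in both astrocyte libraries, and the group went both ways. Acta2, the smooth muscle actin, had 9152 counts in WT and 35539 in S89G-DMP1 (log2 ratio 1.77, interval 1.74 to 1.80), and the calponin Cnn1 954 and 2262 counts (1.06, interval 0.95 to 1.17). In the opposite direction Myh11 had 402 and 37 counts (-3.55, interval -4.15 to -3.14) and the caldesmon gene Cald1 46089 and 21322 counts (-1.30, interval -1.32 to -1.27). Tagln, Tpm1, Myl9 and Tpm2 stayed under 2-fold, at -0.09, -0.09, 0.27 and -0.95. The actins are close copies of each other, so reads of Acta2 may be split with its relatives, and 67.9% of the exon length of Tagln overlaps another annotated gene.

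Of the broadly expressed counterparts Tagln2 had 867 and 4582 counts (2.21, interval 2.11 to 2.32) and Cnn3 3725 and 9657 counts (1.19, interval 1.13 to 1.24). Cnn3 overlaps another gene over 17.7% of its exon length. Tpm4 was lower, with 9561 and 5400 counts (-1.01, interval -1.06 to -0.96), and was under 2-fold by library size alone (-0.72). Myh9 had 41597 and 25402 counts (-0.90) and Myh10 9292 and 16561 counts (0.65). Myh9 and Myh10 therefore held 77.4% and 21.4% of the CPM per kb of the 3 member heavy chains in the WT library and 55.3% and 44.6% in the S89G-DMP1 library.

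At the adhesion itself the lower genes were adaptors of several groups. Parvb had 1021 and 234 counts (-2.30, interval -2.52 to -2.10) and Lims2 268 and 66 counts (-2.17, interval -2.62 to -1.81), whereas their more abundant relatives Parva (-0.39) and Lims1 (-0.16) were under 2-fold. Zyx went from 9607 to 3000 counts (-1.86, interval -1.92 to -1.81), Cavin1 from 22076 to 8502 (-1.56, interval -1.60 to -1.53) and Kank2 from 4812 to 2100 (-1.38, interval -1.46 to -1.31). The muscle filamin Flnc had 8474 and 3923 counts (-1.30, interval -1.35 to -1.24), Tes 1014 and 542 (-1.09, interval -1.24 to -0.94) and Plec 17021 and 9305 (-1.06, interval -1.09 to -1.02). Tes and Plec were under 2-fold by library size alone (-0.80 and -0.77). The talin and vinculin linkage and RhoA and the ROCK genes had 0 members past 2-fold, from -0.81 for Rock2 to 0.55 for Tln2.

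The astrocyte libraries differed in markers of other cells that use these genes. Of 13 counted fibroblast and meningeal markers 9 were lower and 2 higher by 2-fold or more in the S89G-DMP1 library, the former including Foxd1 (2878 and 26 counts) and Pdgfra (1755 and 100 counts), and the list summed to 6575 CPM in WT and 2579 in S89G-DMP1. Of 8 counted mural markers 4 were at least 2-fold lower and 0 higher, with Pdgfrb at 11765 and 2276, Rgs5 at 2431 and 39 and Des at 379 and 17 counts, and a sum of 1226 and 261 CPM. Of 9 counted endothelial markers 5 were lower and 2 higher at 2-fold, with a sum of 211 and 108 CPM. Cdh5 (1917 and 23 counts) held 151 CPM of the WT sum, so the lower S89G-DMP1 sum rested on this gene. The other lower genes were scarce, namely Esam (80 and 15 counts), Tek (32 and 17), Emcn (28 and 12) and Pecam1 (16 and 7). Slco1a4 (95 and 491 counts), Kdr (76 and 184) and, under 2-fold, Flt1 (404 and 790) were higher. Astrocyte markers went the other way from the fibroblast and mural lists, 8 of 10 at least 2-fold higher and 1 lower, with a sum of 136 and 1333 CPM. Microglial markers were present in both, with sums of 741 and 1155 CPM. The part of these cells in the member ratios was not tested.

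**Figure D4:**
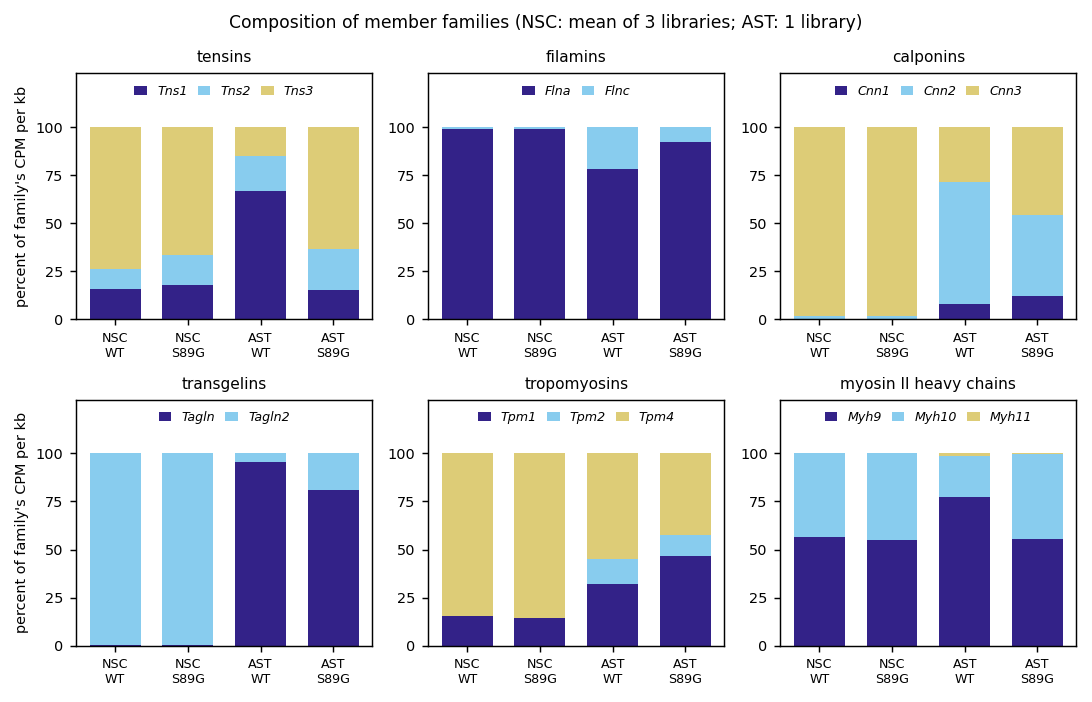
Stacked bars show the percent of each family's CPM per kb held by each member gene, for 6 families in NSCs (mean of 3 libraries) and astrocytes (1 library). In NSCs Tns3, Flna, Cnn3, Tagln2 and Tpm4 hold most of their families in both genotypes, and in the WT astrocyte library Tns1 and Tagln do so for tensins and transgelins.

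Levels per kb showed how far the set differed between the cell types. In WT NSCs Tagln2 stood at 239.8 ± 10.2 CPM per kb (SD, n = 3), Cnn3 at 131 ± 4.76 and Tpm4 at 121 ± 6.56, and the spreads of Cnn3 and Tpm4 overlap. Myh9 (66.8 ± 2.55), Myh10 (51.0 ± 1.08) and Flna (50.2 ± 2.31) followed, of which Myh10 and Flna did not differ beyond their spread. In the WT astrocyte library the order was led by Tagln (694 CPM per kb), Cavin1 (486), Tpm4 (343), Acta2 (329) and Cald1 (302), and in the S89G-DMP1 library by Acta2 (1124), Tagln (654) and Flna (353). Tagln held 0.46% ± 0.17 of the CPM per kb of Tagln and Tagln2 in WT NSCs (SD, n = 3), and 95.5% and 81.1% in the WT and S89G-DMP1 astrocyte libraries. The cell types were aligned with different programs and deposited in separate tables, so their levels were not tested against each other.

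Of the 11 members called lower in NSCs, 10 were also lower in the S89G-DMP1 astrocyte library and 1, Src, was higher by TMM scaling (747 and 1022 counts, 0.27). Over all 45 counted members 32 were lower on that scale, and so were 49.5% of all counted genes and 46.8% of the 964 counted genes that were called lower in NSCs. At least 2-fold lower there were 5 of the 11, Tns1, Plec, Zyx, Cavin1 and Kank2, against 13 of all 45 counted members, 12.8% of all counted genes and 11.5% of the 964. By library size alone 7 were lower and 4 higher, since Tln1 (-0.26 and 0.03), Bcar1 (-0.19 and 0.10) and Tns3 (-0.19 and 0.11) changed sign between TMM and library size, and 4 were at least 2-fold lower. On this scale 33.6% of all counted genes and 33.7% of the 964 were lower. Pxn (2216 and 1832 counts, -0.46) and Myh9 (-0.90) were lower on both scales and under 2-fold. The NSC and astrocyte libraries share no samples.

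**Figure D5:**
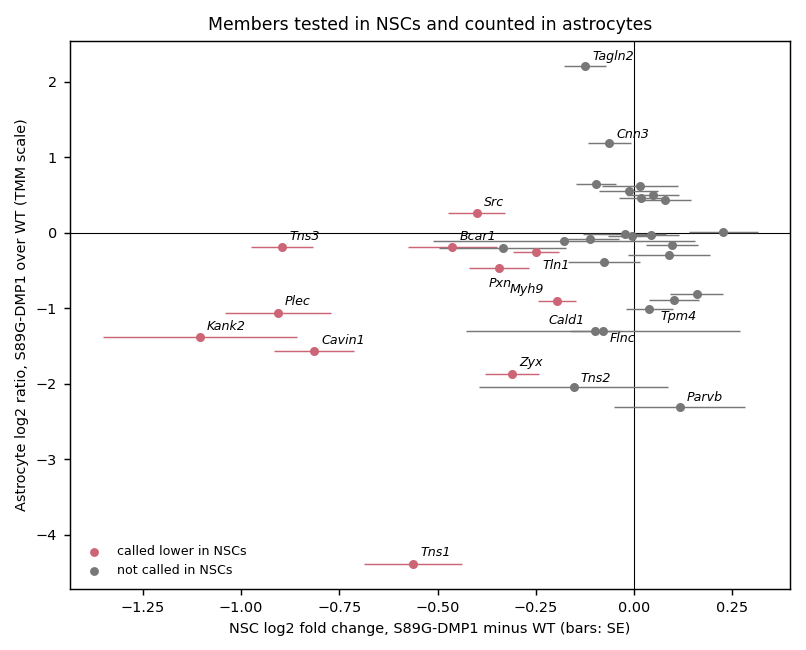
The NSC log2 fold change (x axis, bars SE, 3 against 3 libraries) is plotted against the astrocyte log2 ratio on the TMM scale (y axis, 1 library each) for the 36 members tested in NSCs. The 11 coloured genes called lower in NSCs spread from Tns1 at -4.38 to Src at 0.27 in astrocytes, and Tagln2 (2.21) and Cnn3 (1.19), both uncalled in NSCs, lie highest.

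Of the 78 genes of the wider list counted in astrocytes 5 were higher and 16 lower by 2-fold or more, against 17.3% and 12.8% of all counted genes. The median log2 ratio of the 78 was -0.03, or 0.26 by library size alone. The largest decreases were those of the YAP target Ankrd1 (806 and 21 counts, -5.31), the LIM protein genes Pdlim1 (1835 and 187 counts, -3.47) and Fhl2 (2177 and 304 counts, -3.02), the smooth muscle coactivator Myocd (61 and 8 counts, -2.82) and the caveolar Cavin2 (1056 and 228 counts, -2.39). Myh14 (15 and 678 counts, 5.15), Parvg, a parvin of blood cells (13 and 162 counts, 3.28), Diaph3 (170 and 550 counts, 1.50), Cav2 (596 and 1702 counts, 1.33) and the adhesion scaffold Nedd9 (652 and 1764 counts, 1.25) were the largest increases. All 10 kept their direction and stayed past 2-fold by library size alone.

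Promoters were searched because SRF binds a DNA element called the CArG box in many contractile genes and TEAD proteins, the partners of YAP, bind GGAATG. RefSeq promoter windows of build GRCm38.p6 matched 37 of the 46 members, with 47 windows, and the 250 bases before each start were searched on both strands. The CArG box was searched as CCWWWWWWGG, where W is A or T, so near matches such as CCCTATATGG in the Acta2 window were not counted. A full match was found in 4 of the 47 windows (8.51%), and in 1.47% of all 32851 windows. GGAATG was found in 23.4% of member windows and 12.6% of all, and the GC box GGGCGG in 70.2% and 32.7%. A base may belong to matches of more than 1 motif. The members called lower in NSCs had 11 windows from 9 genes, with none for Plec or Pxn. Of these 11 windows 0 held a CArG box, 2 held GGAATG and 10 held a GC box. Both windows with GGAATG belong to Cavin1 and start 2 bases apart. The 4 CArG boxes are the only full matches in the 47 windows. The stretches around them are shown 5′ to 3′ on the strand of the gene, with the box in capitals:
Cnn2 (chr10:79988519-79988578, plus strand, 47 bases before the start): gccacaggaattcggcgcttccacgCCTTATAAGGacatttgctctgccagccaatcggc
Fermt2 (chr14:45530235-45530294, minus strand, 195 bases before the start): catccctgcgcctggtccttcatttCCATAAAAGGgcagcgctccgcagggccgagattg
Myl9 (chr2:156775278-156775337, plus strand, 152 bases before the start): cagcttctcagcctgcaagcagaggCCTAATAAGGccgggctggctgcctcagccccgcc
Vcl (chr14:20929148-20929205, plus strand, 218 bases before the start): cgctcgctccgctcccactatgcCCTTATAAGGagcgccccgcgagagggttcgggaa
Cnn2, Fermt2 and Vcl were not called in NSCs, where Myl9 was not tested, and in astrocytes their log2 ratios were -0.10, 0.43, -0.02 and, for Myl9, 0.27. A match of letters is not evidence that a factor binds there, and the absence of one in 250 bases says nothing of sites elsewhere.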

How the data were processed

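RNA sequencing of 3 WT and 3 S89G-DMP1 neurosphere NSC libraries and of 1 WT and 1 S89G-DMP1 astrocyte library was used. The authors removed adapter, undetermined and low-quality reads and deposited raw counts per gene with FPKM values for astrocytes, and raw counts with TPM values for NSCs. The submitters' processing notes name Bowtie2 2.0.6 and TopHat2 2.0.9 for astrocytes, and HISAT2, StringTie, featureCounts and GRCm38 for NSCs. The strand setting of the counting and the astrocyte build are not given in the sources used here. Of 5804 NSC genes that average 100 counts or more, 81 are listed at 0 in some deposited TPM column, which is why the main comparisons rest on the counts.

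For NSCs, filterByExpr and TMM scaling were followed by the quasi-likelihood test of edgeR 4.0.16 in R 4.3.3, with genotype alone in the model and p-values adjusted by Benjamini-Hochberg across every tested gene. Adjusted p-values without a tool named are from this test. Astrocyte log2 ratios are those of TMM-scaled CPM (prior count 2) where either library reached 10 counts. Alternatives were DESeq2 1.42.0, limma 3.58.1 on log2(TPM + 1) and log2(TPM + 0.1), other scalings and filters, FPKM on the scales log2(FPKM + 1) or log2(FPKM + 0.1), the prior count set to 0.5, each NSC library left out and the replicate number as a block. Exon lengths, gene positions and overlaps are from GENCODE M21 (GRCm38). The members, the wider list and the marker lists were chosen with earlier results of these data known.

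Within a genotype, the chi-square of any pair of NSC libraries lay at 1.07 to 1.51 a gene (1 under pure counting noise), which is above counting noise but does not show that the libraries came from separate cultures. They were counted as 3 because the labels list them as separate samples. Every member called in NSCs is named with every library, and every member past 2-fold in astrocytes with both counts. Of the wider list, up to 5 called genes with the largest change in each direction are named for NSCs, and the 5 largest ratios in each direction for astrocytes.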

Additional observations from a re-analysis of the deposited data

Results flagged for a closer look

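Of the 27 members and wider-list genes called in NSCs, 26 had no overlap between the genotypes. In 9 of these 26 every S89G-DMP1 NSC library moved in one direction against every WT library and the astrocyte pair moved in the other by TMM scaling, beyond the counting interval and with the same sign by library size alone. Over all genes called in NSCs without overlap and counted in astrocytes this held for 570 of 1644 (34.7%), against 34.6% of the 26. The difference between cell types was not tested, since the astrocytes have 1 library per genotype. Src, the only member among them, fell in NSCs (-0.40, SE 0.07) and had an astrocyte log2 ratio of 0.27 (counting interval 0.13 to 0.40). The other 8 come from the wider list. Myh14, the heavy chain of myosin IIC, fell in NSCs (-0.79, SE 0.11) and had an astrocyte log2 ratio of 5.15 over a WT count of 15. The LIM protein gene Fhl1 stood at -0.68 in NSCs and 0.59 in astrocytes, and the caveolin gene Cav2 at -0.40 and 1.33. Pdlim5, an adaptor of actin, stood at -0.27 and 0.51, Svil, which encodes supervillin, at -0.35 and 0.25, the myosin phosphatase gene Ppp1r12a at -0.33 and 0.20, and Ccn1 at -0.90 and 0.11. Mylk went the other way, 0.41 in NSCs and -1.20 in astrocytes. Svil, Mylk, Ccn1 and Cav2 were not called in NSCs by DESeq2.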

How the results depend on the processing

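The 11 members called lower in NSCs were also called under RLE factors, library size alone, no filter on low counts, at least 10 counts in every library and in each fit that left out 1 library. The members called higher numbered 0 to 2 with each library left out. DESeq2 called 321 higher and 424 lower genes over all genes. On log2(TPM + 1) limma called 2 members lower, 38 genes higher and 107 lower, and on log2(TPM + 0.1) 2 members lower, 31 genes higher and 85 lower; the cause was not tested. The log2 fold change of Src was -0.09 on both TPM scales. The replicate number as a block gave 11 members lower and 0 higher, 829 genes higher and 1016 lower over all genes, and changed no call of a member. Deviations of same-numbered libraries correlated at 0.05, 0.01 and 0.00 over 8082 genes, against -0.04 to 0.03 between differently numbered ones. S89G-DMP1 replicates 1 and 2 correlated best with the WT library of their own number, and replicate 3 with WT replicate 2. Correlations this small cannot decide whether the libraries were paired.

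In astrocytes the median log2 ratio of the members reversed from -0.20 to 0.0932 by library size alone, 0.0931 on log2(FPKM + 0.1) and 0.0928 on log2(FPKM + 1). On these 3 scales Tln1 reversed to 0.0342 in each, Bcar1 to 0.0998, 0.0997 and 0.0971, and Tns3 to 0.1056, 0.1055 and 0.1047. With at least 10 counts in both libraries 1591 of all genes were at least 2-fold higher, where fewer genes are counted, and on log2(FPKM + 1) 1020 were at least 2-fold lower. Members at least 2-fold lower numbered 9 to 13 and members higher 4 under every alternative run. Counting error limits the 10 members not tested in NSCs, and in astrocytes it is the only error the data give.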

Other observations

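Markers of the neural lineage, counted beside the adhesion genes, are given as values. Of 9 neural stem and progenitor markers tested in NSCs 3 were called higher and 0 lower, against 7.08% and 8.76% of all tested genes. The radial glial gene Fabp7 (log2 fold change 0.56) was among the 3. In astrocytes 7 of the 9 counted were at least 2-fold higher in the S89G-DMP1 library, against 17.3% of all counted genes. Sox2 had 30 counts in the WT and 2705 in the S89G-DMP1 library. Of 5 neuronal markers tested in NSCs 1 was called, the synaptic vesicle gene Syt1, which had 144, 169 and 146 counts in WT and 12, 22 and 21 counts in S89G-DMP1 (log2 fold change -3.00). Of the 4 oligodendrocyte markers tested 0 were called by edgeR, 0 had an unadjusted p under 0.05 and 0 were called by DESeq2. Olig1 had 5927 to 6547 counts in every NSC library, against 4 and 2691 in the WT and S89G-DMP1 astrocyte libraries. All 10 microglial markers had at most 3 counts in every NSC library. Of the endothelial list 1 gene could be tested in NSCs, the receptor gene Flt1, with 2, 6 and 4 counts in WT and 16, 12 and 13 counts in S89G-DMP1, and it was called higher by edgeR (1.79), whereas DESeq2 gave it no adjusted p.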
